A study of Rattus norvegicus with 54 samples.

Results

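The 10 genes described here, Adipoq, Plin1, Cidec, Lep, Retn, Cfd, Pck1, Acvr1c, Adrb3 and Tshr, are genes that mark the fat cell, and they are 10 of the 40319 genes listed by symbol in the count tables. They were taken by symbol, and they had been proposed with their border zone levels in view, so their border and infarct zone values are given as a description with no test. Left ventricular tissue of 18 female athymic rats (strain F344/NJcl-rnu/rnu, 8 weeks old) had been collected 1 week after surgery. A group of 6 animals had sham surgery, 6 had ligation of the left anterior descending coronary artery without treatment (MI), and 6 had the same ligation followed by transplantation of a bi-level sheet of human smooth muscle cells and endothelial progenitor cells onto the epicardium (cell sheet). Each heart was cut into an infarct zone (anterior wall), a border zone (lateral wall) and a remote zone (septum), and polyadenylated RNA of each piece was sequenced, which gave 54 libraries in 9 groups of 6. All animals shared the athymic background, in which mature T cells are not made. Reads were aligned to the rat genome alone, so transcripts of the human cells were not counted apart. Whether any of their reads were counted under rat genes in the cell sheet libraries was not tested. Within a group the libraries carry the label technical replicate although the study describes different rats, so p-values measure the spread between these libraries.

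White fat cells store triglyceride in a single large lipid droplet coated by proteins such as perilipin, release fatty acids from it under adrenergic control, and secrete hormones into the blood. In the rodent heart they are few, and lie mainly on the epicardial surface and along the atrioventricular groove. Because the tissue was measured in bulk, more fat cells and more RNA of these genes per cell cannot be told apart.

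Library depth lay between 12699204 and 23397754 counts on genes. Levels are given as CPM, the counts of a gene relative to the library total scaled with TMM factors, and 3 counts, taken as the floor of detection, were worth 0.116 to 0.262 CPM. Marker genes of other cells showed libraries that stood apart. The summed level of 10 cardiomyocyte genes was 204.7 CPM in the border zone library of cell sheet replicate 1, against 11143 to 38610 CPM in the other 5 cell sheet border zone libraries. In sham replicate 5 the sum of 8 macrophage genes was 12296 CPM in the border zone, against 328 to 674 CPM in the other 5 sham animals, and it was also the highest sham value in the infarct and remote zones. Cell sheet replicate 1 stood apart in the remote zone as well, with 3121 CPM of macrophage genes against 406 to 759 CPM in the other 5. Sham border zone tissue held cardiomyocyte RNA in every library, at 28788 CPM in replicate 5 and 85376 to 93837 CPM in the other 5. Sham replicate 5 had the lowest sham value in the infarct and remote zones as well, at 31457 and 41788 CPM.

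The sequences upstream of the genes are shown as background, and shared control of the members was not tested. Promoters of 8 of the 10 members were found in the RefSeq table for the GRCr8 assembly, and none of Adrb3 or Tshr. The 250 bases before the start were searched on both strands for 4 motifs. The nuclear receptor half-site AGGTCA was found in 2 of 8 members (Retn and Pck1) and in 14.1% of 33469 rat promoters. The C/EBP core TTGCNNAA was found in 3 of 8 (Plin1, Cidec and Lep) and in 9.22% of promoters. The direct repeat of the half-site with a spacer of 1 base, in a degenerate form, was found in 0 of 8 and in 0.368% of promoters, and TATAAA in 0 of 8 and in 12.9%. A match is a string of letters and not a measured binding site. The bases that lie outside the annotated gene are printed for 4 members, 5′ to 3′ on the strand of the gene, with a C/EBP core in capitals for Plin1 and Lep and the half-site in capitals for Pck1. They are Adipoq at chr11:91240245-91240419 (minus strand), Plin1 at chr1:143086200-143086398 (minus strand), Lep at chr4:58626288-58626528 (plus strand) and Pck1 at chr3:182348322-182348571 (plus strand).
Adipoq: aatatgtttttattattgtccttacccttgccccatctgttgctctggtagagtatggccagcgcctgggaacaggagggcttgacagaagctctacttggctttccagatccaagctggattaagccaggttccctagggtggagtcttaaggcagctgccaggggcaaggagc
Plin1: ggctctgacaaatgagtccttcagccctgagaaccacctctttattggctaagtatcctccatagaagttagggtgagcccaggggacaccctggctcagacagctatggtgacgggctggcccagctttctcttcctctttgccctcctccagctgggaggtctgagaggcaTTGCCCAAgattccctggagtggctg
Lep: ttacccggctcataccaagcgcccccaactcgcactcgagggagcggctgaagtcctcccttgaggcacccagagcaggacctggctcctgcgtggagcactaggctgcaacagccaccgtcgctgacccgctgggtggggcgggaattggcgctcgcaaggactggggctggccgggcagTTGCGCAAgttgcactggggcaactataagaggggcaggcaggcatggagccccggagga
Pck1: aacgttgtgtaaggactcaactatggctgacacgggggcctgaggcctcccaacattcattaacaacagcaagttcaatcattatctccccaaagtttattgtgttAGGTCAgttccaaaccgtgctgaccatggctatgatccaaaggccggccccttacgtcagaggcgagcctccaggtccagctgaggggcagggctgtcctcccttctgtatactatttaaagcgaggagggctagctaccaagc

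In the border zone, the 10 genes were high in 4 of the 6 cell sheet libraries, those of replicates 1, 2, 5 and 6, and low in replicates 3 and 4. In each of the 10 genes these 4 libraries lay above the highest untreated MI library, and the other 2 did not exceed it. The groups therefore overlapped for all 10. The share of all genes whose groups overlapped was not counted, here or in the other comparisons. By the other measure, 18% of the 16272 genes tested in this comparison passed an adjusted p of 0.05. The difference between the group means of log2(CPM + 0.1) ran from 1.14 for Cfd to 5.30 for Plin1, with a median of 4.26 over the 10 genes. Over all genes tested the median log2 fold change of edgeR's two-group fit, a different measure, was −0.0044. Without cell sheet replicate 1, the library nearly free of cardiomyocyte RNA, the median over the 10 genes was 3.75.

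**Figure D1:**
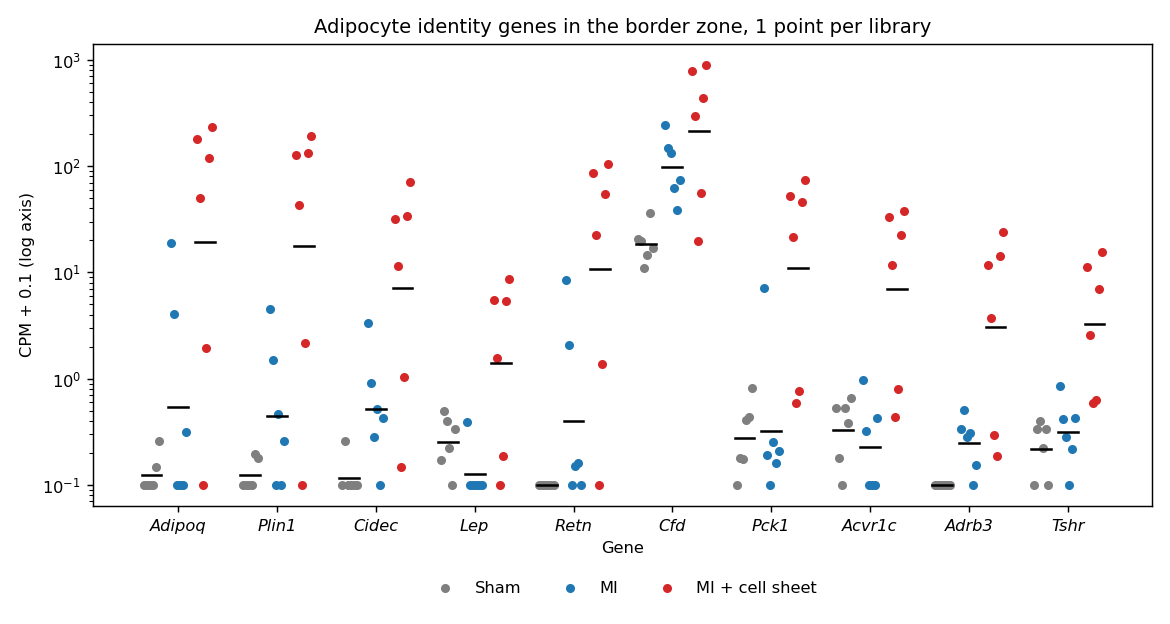
CPM plus 0.1 (log axis) of the 10 adipocyte identity genes in the 18 border zone libraries, with 1 point per library and a black bar at the mean on the log scale. In each gene 4 of the 6 cell sheet points lie above every MI point, and the sham points lie at or below 0.71 CPM except for Cfd, which sits between 10.9 and 36.4 CPM in sham.

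Plin1 encodes perilipin, the coat protein that guards the droplet of fat cells. Its level in cell sheet replicates 1 to 6 was 128, 42.6, 0, 2.07, 133 and 193 CPM. In MI it was 4.38, 1.39, 0, 0.363, 0 and 0.162 CPM, and in sham it did not exceed 0.0957 CPM. Replicates 1, 2, 5 and 6 were thus far above every MI library, whereas replicate 3 had no Plin1 count at all. Cidec, which fuses small droplets into large ones, was at 32.0, 11.3, 0.0485, 0.927, 34.2 and 70.7 CPM in the cell sheet libraries and at or below 3.27 CPM in MI. Its sham libraries had at most 2 counts.

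Among the secreted factors, Adipoq encodes adiponectin, a hormone made almost only by fat cells. Its cell sheet border zone levels were 182, 49.9, 0, 1.85, 118 and 233 CPM in replicates 1 to 6. The MI values were 18.6 and 3.99 CPM in replicates 1 and 2 and 0 to 0.216 CPM in the other 4, and sham values were at or below 0.158 CPM. MI replicate 1 was thus the only MI border zone library with more than 5 CPM. The difference in mean log2 level was 5.15, with a pooled SD of 3.92 between libraries, and it ran from 4.43 to 6.67 when each library was left out in turn.
Retn encodes resistin, a fat cell hormone of rodents. It followed Adipoq closely, with 86.4, 22.2, 0, 1.28, 54.3 and 105 CPM in the cell sheet libraries, and 8.41 and 1.97 CPM in MI replicates 1 and 2. The other 4 MI libraries had at most 0.0595 CPM and all 6 sham libraries had no count. Lep, the gene of the satiety hormone leptin, stayed low throughout. It reached 5.37, 1.45, 5.25 and 8.56 CPM in cell sheet replicates 1, 2, 5 and 6, and 0.292 CPM (5 counts) in the 1 MI library that had any.

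Cfd encodes adipsin, a serine protease of the alternative complement pathway that fat cells secrete and that macrophages also make. It differed from the other members in having counts in all 54 libraries. Its cell sheet border zone levels were 790, 293, 19.6, 55.5, 434 and 895 CPM, its MI levels were 244, 147, 131, 62.5, 38.5 and 73.6 CPM, and its sham levels ran from 10.9 to 36.4 CPM with a median of 18.2. Cell sheet replicate 3 was below all 6 MI libraries. MI and sham did not overlap for Cfd, the 1 member of 10 of which this held. The share of all genes without overlap was not counted, while 41.7% of all tested genes passed the threshold on the adjusted p.

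Pck1 encodes the cytosolic phosphoenolpyruvate carboxykinase, which in fat cells supplies glycerol for triglyceride. It was at 52.8, 21.7, 0.485, 0.662, 45.8 and 74.6 CPM in the cell sheet libraries, at 7.01 CPM in MI replicate 1 and at or below 0.155 CPM in the other 5 MI libraries.

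The surface receptors showed the same libraries. Acvr1c, a type I receptor of the activin and nodal family found on mature fat cells, was at 33.2, 11.6, 0.34, 0.706, 22.4 and 38.1 CPM in the cell sheet libraries and at or below 0.876 CPM in MI. Adrb3, the adrenergic receptor through which catecholamines drive lipolysis, was at 11.7, 3.63, 0.194, 0.0883, 14.2 and 24.1 CPM, with at most 0.404 CPM in MI and no count in sham. Tshr, the thyrotropin receptor, which fat cells carry outside the thyroid, was at 11.2, 2.49, 0.485, 0.53, 6.91 and 15.4 CPM, and at most 0.759 CPM in MI. Cell sheet replicate 4 had 16 counts of Acvr1c, and replicates 3 and 4 had 10 and 12 counts of Tshr. These values were below the highest MI library and above the highest sham library, which was at 0.552 CPM for Acvr1c and at 0.301 CPM for Tshr.

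In untreated MI against sham the border zone difference was smaller. The median difference in mean log2(CPM + 0.1) over the 10 genes was 1.58. It was positive for 8 genes and negative for 2, Lep (−1.01) and Acvr1c (−0.55), and Pck1 differed by 0.22. The median was 1.11 without MI replicate 1, and 1.65 without the macrophage-rich sham replicate 5. With an offset of 1 CPM in place of 0.1 it was 0.471.

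The infarct zone did not repeat the border zone. Adipoq was at 18.8, 1.66, 13.0, 10.6, 0 and 0 CPM in cell sheet replicates 1 to 6. In MI replicate 4 it was at 34.4 CPM, the highest infarct zone value, and the other 5 MI libraries had 0 to 0.847 CPM. Plin1 reached 15.7, 6.31 and 10.6 CPM in cell sheet replicates 1, 3 and 4 and 10.05 CPM in MI replicate 4. The cardiomyocyte genes summed to 1121 to 4611 CPM in cell sheet replicates 1 to 4 and to 18789 and 43578 CPM in replicates 5 and 6. Their sum was 14553 CPM in MI replicate 4, within an MI range of 4059 to 53756 CPM. The part of this difference in tissue was not tested. The groups overlapped for all 10 genes, and 0% of 16196 genes passed the threshold between cell sheet and MI in this zone by edgeR (1341 had an unadjusted p under 0.05). The median difference over the 10 genes was 1.31 on the log2(CPM + 0.1) scale. Leaving out cell sheet replicate 1 gave 0.861, and leaving out MI replicate 4 gave 2.02. Many libraries are at or near 0 here, and the size depends on the measure. The log2 fold change of edgeR's fit was 0.28 for Adipoq and 0.81 for Cidec, against 1.63 and 1.20 by mean log2(CPM + 0.1). Cfd (0.32 and 0.31) and Tshr (0.40 and 0.41) were alike by both, and the other members did not pass the filter.
Cfd was again the member whose MI and sham levels did not overlap in the infarct zone, with 62.9 to 202 CPM against 14.4 to 43.1 CPM. The share of all genes without overlap was not counted, while 49.9% of all genes tested passed the threshold on the adjusted p. Over the 10 genes the median difference between MI and sham in this zone was 1.52, and 0.529 without MI replicate 4. Acvr1c (−0.64), Pck1 (−0.17) and Lep (−0.10) were lower on average in MI.

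The zone that held the fat cell transcripts therefore differed between animals. The levels of the 9 members other than Cfd were summed for each piece of tissue. In cell sheet replicates 1, 2, 5 and 6 the border zone held most, with sums of 542, 167, 434 and 763 CPM. In replicates 3 and 4 the infarct zone held most, with 37.4 and 35.5 CPM. The highest zone of the MI animals held 43.8 CPM (replicate 1, border), 9.19 CPM (replicate 2, border), 1.94 CPM (replicate 3, remote), 76.1 CPM (replicate 4, infarct), 1.17 CPM (replicate 5, remote) and 16.6 CPM (replicate 6, remote). The MI animals with the largest sums were thus high in 3 different zones. The sham animals ran from 0.993 to 6.52 CPM in their highest zone, and the largest of these sums came from the remote zone of replicate 6.

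**Figure D2:**
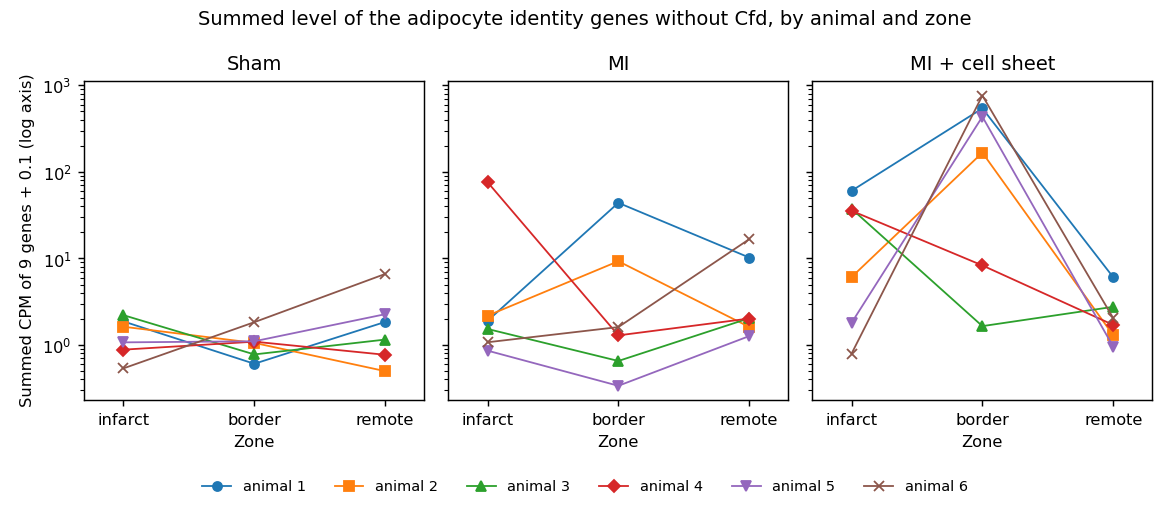
Summed CPM plus 0.1 (log axis) of the 9 adipocyte identity genes other than Cfd in the infarct, border and remote zone of each animal, with 1 line per animal and 1 panel per treatment. Cell sheet animals 1, 2, 5 and 6 peak in the border zone at 167 to 763 CPM, and MI animal 4 peaks in the infarct zone at 76.1 CPM.

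Tests of the members were made in the remote zone and in sham hearts. The MI and cell sheet libraries of the border and infarct zones, which led to their choice, do not enter there. The remote pieces come from the same animals, and earlier results of these data were known. These p-values are therefore not wholly free of that choice. Of the 10 genes only Cfd passed the filter on low counts there. The remote zone Cfd level was 34.6, 13.0, 37.3, 21.6, 47.0 and 77.4 CPM in MI and 8.66, 7.65, 9.3, 12.1, 22.8 and 13.1 CPM in sham. It was higher in MI, with a log2 fold change of 1.64 (SE 0.39, adjusted p = 0.00929 by edgeR's quasi-likelihood test), in a comparison where 25.8% of 15294 genes passed. Without sham replicate 5 the value was 1.92, and the call held without each library in turn (1.32 to 1.92). The macrophage genes lay at 859 to 3110 CPM in MI and at 320 to 659 CPM in the 5 sham animals other than replicate 5, and their part in the Cfd difference was not tested.
The remote zone Cfd level in the cell sheet group was 48.4 CPM in replicate 1 and 9.28 to 23.2 CPM in the other 5. Against MI the log2 fold change was −1.001 (SE 0.47, adjusted p = 0.146 by edgeR), where 17.1% of 15374 genes passed. Without cell sheet replicate 1 it was −1.52 (adjusted p = 0.0067 by edgeR), in a fit where the genes called rose from 2623 to 6450. Without MI replicate 6 it was −0.675 (adjusted p = 0.319 by edgeR), so its size and its call depended on single libraries. Against sham the log2 fold change was 0.64 (SE 0.43, adjusted p = 0.664 by edgeR), and 0.0066% of 15157 genes passed. It was 0.11 without cell sheet replicate 1.

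The other 9 members did not exceed 8.79 CPM in any remote zone library. Adipoq reached 8.79 CPM in MI replicate 6, 5.27 CPM in MI replicate 1, 2.66 CPM in sham replicate 6 and 2.01 CPM in cell sheet replicate 1, and was at or below 0.491 CPM in the other 14. Plin1 was highest in the same 4 libraries, at 1.89, 2.06, 0.981 and 0.923 CPM. Each treatment thus had at least 1 animal with these transcripts in the septum.

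In sham hearts Cfd ran from 7.65 to 22.8 CPM in the remote, 10.9 to 36.4 CPM in the border and 14.4 to 43.1 CPM in the infarct position. The border position differed from the remote zone by a log2 fold change of 0.67 (SE 0.33, adjusted p = 0.362 by edgeR, where 2.04% of genes passed, 1.51% higher and 0.524% lower). With the animal as a block it was 0.67 (adjusted p = 0.00583), and without sham replicate 5 it was 0.68 (adjusted p = 0.0229). The infarct position differed from the remote zone by 0.96 (SE 0.33, adjusted p = 0.107 by edgeR, where 7.17% of genes passed, 4.44% higher and 2.73% lower). That difference was called with the animal as a block (0.96, adjusted p = 1.67e-06), by DESeq2 (0.96, adjusted p = 0.0369) and without sham replicate 5 (0.99, adjusted p = 0.00172). The level was lower in the septum than in the anterior wall in each of the 6 sham hearts.
Of the other adipocyte genes, described with the border zone lists, 1 of 78 was called between border and remote position (Foxo1, lower). It was not called without any of replicates 1, 2, 3, 4 and 6 (0 genes), while 16 were called without replicate 5 and 29 with the animal as a block, 8 of them higher in the border position. Over all genes, 307 were called with every library and 2180 without replicate 5. The count over all genes with the block is not given here, so the 29 have no such share beside them. Between infarct and remote position 3 of 79 were called (Adig and Fabp5 higher, Foxo1 lower). There were 1 without any of replicates 2, 3, 4 and 6, 18 without replicate 5 and 31 with the animal as a block, 9 of them higher in the infarct position. The count over all genes rose from 1081 to 3387 without replicate 5. With the block it is not given here, so the 31 have no such share beside them either.

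The proportions of the members to each other varied between libraries, more for some genes than for others. Counts per 100 Adipoq counts were taken in the 12 libraries with at least 50 Adipoq counts, and their 95% exact intervals cover counting error alone. Retn held 44.5 to 47.6 counts per 100 of Adipoq in the 4 cell sheet border zone libraries, 45.1 and 49.4 in MI border zone replicates 1 and 2, and 37.6 in MI infarct zone replicate 4. It was lower in the remote zone, at 8.7 (interval 3.08 to 19.9) and 18.1 (11.6 to 27.4) in MI replicates 1 and 6. Tshr stood at 5.00 to 6.63 per 100 in the cell sheet border zone and at 4.08 and 7.87 in the MI border zone. It was at 2.68 (interval 1.65 to 4.12) in MI infarct zone replicate 4.
Plin1 differed more. It held 70.4, 85.4, 113 and 82.9 counts per 100 of Adipoq in the cell sheet border zone, against 23.5 (18.03 to 30.3) and 34.8 (22.4 to 53.0) in the MI border zone and 29.2 (25.1 to 33.9) in MI infarct zone replicate 4. The cell sheet infarct zone libraries had 83.3, 48.5 and 99.1 per 100. The lowest of these, replicate 3 of the infarct zone (interval 39.8 to 58.8), overlapped MI border zone replicate 2 and also MI remote zone replicate 1 (24.1 to 61.9). Acvr1c was at 16.4 to 23.4 per 100 in the cell sheet border zone and at 4.7 and 5.62 in the MI border zone. In the infarct zone it was at 20.5, 11.3 and 7.56 in cell sheet replicates 1, 3 and 4 and at 7.40 in MI replicate 4, so that the treatments were not separated there. The libraries compared here were chosen by their Adipoq count, and the ratios are a description.

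**Figure D3:**
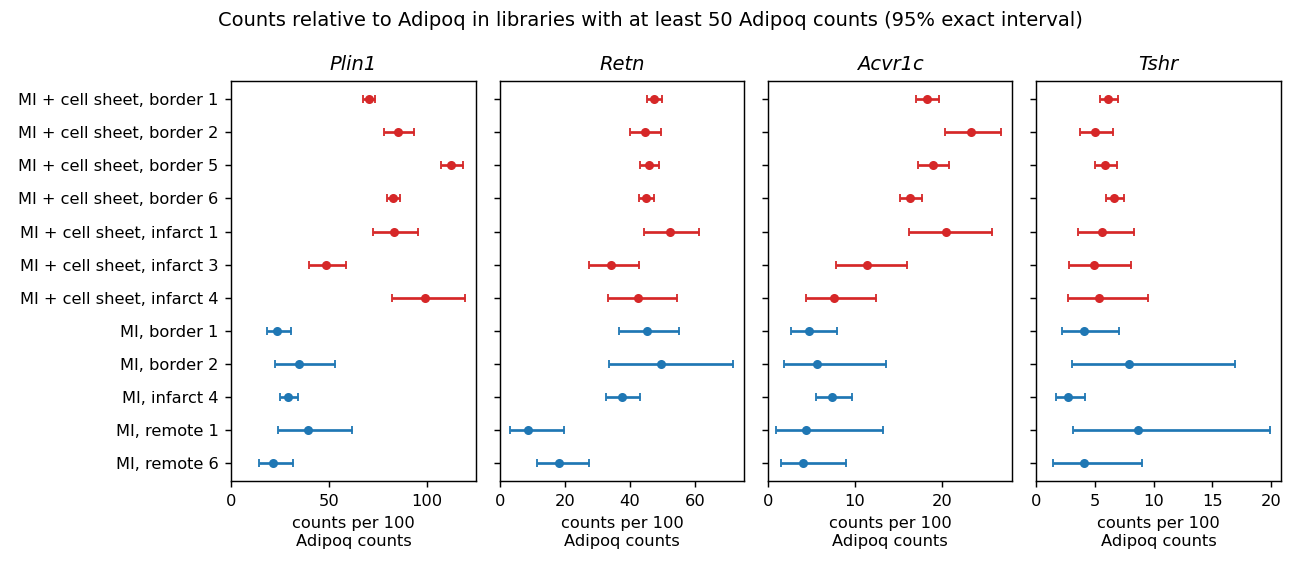
Counts of Plin1, Retn, Acvr1c and Tshr per 100 Adipoq counts (horizontal axes) in the 12 libraries with at least 50 Adipoq counts, with 95% exact intervals for counting error. Plin1 lies at 48.5 to 113 in the 7 cell sheet libraries and at 21.5 to 39.1 in the 5 MI libraries, while Retn lies between 34.4 and 52.3 in all but the 2 remote zone libraries.

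Across the 54 libraries, the rank correlation (Spearman's rho) of each member with the mean log2 level of the other 9 was highest for Plin1 (0.81) and Adipoq (0.80) and lowest for Lep (0.23) and Acvr1c (0.36). Within the 18 border zone libraries it was 0.92 for Plin1 and 0.43 for Lep. These points share animals, depth and many values of 0. Of 18077 other genes with at least 10 counts in 6 libraries, those whose rank order over the 54 libraries was most like that of the members' mean included Slc7a10 (rho 0.79), LOC120099949 (0.75), Svep1 (0.75), Epyc (0.74), Ca3 (0.74), Rbp4 (0.74), S100b (0.73) and Lgals12 (0.73). Slc7a10 ran from 0 to 17.9 CPM in the cell sheet border zone (median 5.76), at most 0.584 CPM in MI and at most 0.191 CPM in sham. Ca3 ran from 25.7 to 1292 CPM (median 494) in the cell sheet border zone, from 20.3 to 61.4 CPM in MI, and was at most 1.04 CPM in sham.

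Other genes of the fat cell programme were followed in 6 lists with 92 genes, of which 91 are in the tables and 87 were tested in the border zone between cell sheet and MI. Of these, 21 were higher after cell sheet treatment and 0 lower, against 8.47% of all genes higher and 9.48% lower. The median log2 fold change was 0.46, and −0.0044 over all genes tested. They were measured in the same 12 libraries as the members and are no separate evidence. The count was 24 without cell sheet replicate 1, and 14 without replicate 5 or without replicate 6. Over all genes 2922 were called with every library, and 1941 to 3083 when each library was left out. Genes named here beyond those of highest mean CPM in each list were chosen after their values were seen.
Of 12 transcription factors, 5 rose. Pparg, the nuclear receptor that directs fat cell formation, was at 26.0, 10.2, 6.02, 5.74, 16.1 and 28.0 CPM in cell sheet and 3.5 to 7.12 CPM in MI (log2 fold change 1.63, SE 0.41, adjusted p = 0.0167 by edgeR). Ebf1 rose by 0.70, Srebf1 by 1.18, Foxo1 by 0.44 and Rxra by 0.26 on the log2 scale. The call of Rxra was lost without any of cell sheet replicates 1, 2, 5 and 6 and MI replicates 1, 3, 4, 5 and 6, and with no filter on low counts (adjusted p = 0.106) or no TMM factors (0.0624), that of Foxo1 without cell sheet replicate 2 and that of Srebf1 without cell sheet replicate 5 or MI replicate 5. Cebpa, which maintains the mature fat cell, was at 22.9 to 98.5 CPM against 32.8 to 88.7 CPM (log2 fold change −0.07, adjusted p = 0.91).

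Of 12 genes of fatty acid synthesis, 4 rose. Fasn, the fatty acid synthase, was at 217, 104, 49.5, 60.9, 562 and 1209 CPM in cell sheet replicates 1 to 6 and at 44.1 to 67.5 CPM in MI (log2 fold change 2.81, SE 0.73, adjusted p = 0.0195 by edgeR). The groups overlapped because replicates 3 and 4 were at MI level. Acaca, which makes malonyl-CoA for the synthase, was at 38.2 to 236 CPM against 29.1 to 32.5 CPM and did not overlap (log2 fold change 1.63). Scd, which desaturates stearate, differed by 5.16 on the log2 scale and Thrsp by 5.71. The call of Thrsp was lost without cell sheet replicate 2, 5 or 6 or without MI replicate 2, 3, 4, 5 or 6 (adjusted p up to 0.074). Me1, Pgd and Elovl5, of highest mean CPM in the list, showed log2 fold changes of −0.01, −0.29 and −0.08 and were not called.

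Of 23 tested genes of lipid storage and release, 4 were higher: Gpd1 (log2 fold change 2.10), Lipe (0.96), Gpam (0.94) and Slc27a1 (0.51). Lipe encodes the hormone-sensitive lipase, and its call was lost without cell sheet replicate 5 or 6, as was that of Gpd1. Slc27a1 lost its call without any of cell sheet replicates 2, 5 and 6 and MI replicates 1, 2 and 3. Fabp4, a fatty acid carrier of fat cells that endothelial cells also make, was at 264 to 580 CPM against 256 to 855 CPM (log2 fold change −0.40, adjusted p = 0.413). For Lpl, made by both fat cells and cardiomyocytes, it was 0.43 (adjusted p = 0.492).

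Of 19 tested receptors and secreted factors, 6 were higher. Irs1, the insulin receptor substrate, was at 23.3 to 42.7 CPM in cell sheet and 10.8 to 17.0 CPM in MI, with no overlap (log2 fold change 1.27, SE 0.17, adjusted p = 0.000857 by edgeR). Adra2a, the adrenergic receptor that restrains lipolysis, was at 48.9, 21.5, 0.485, 7.33, 18.1 and 28.0 CPM against 0.535 to 3.65 CPM (log2 fold change 3.68, SE 0.83, adjusted p = 0.00991 by edgeR). Rbp4, Agt, Hcar1 and Trarg1 had log2 fold changes of 3.86, 3.73, 3.08 and 2.79, and Rbp4 was not called without cell sheet replicate 6. Slc2a4, the insulin-responsive glucose transporter that heart muscle shares, had 0.55 (adjusted p = 0.558).

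In the brown and beige list 1 of 9 tested genes was higher, Prdm16, at 4.10 to 22.5 CPM against 1.85 to 8.53 CPM. Its highest cell sheet value came from replicate 3, in which Adipoq and Plin1 had no count, and its call was lost without any of cell sheet replicates 2 to 6 and MI replicates 1 to 5, and with no filter on low counts (adjusted p = 0.0617). Ucp1, the uncoupling protein of brown fat, was at or below 0.333 CPM in all 18 border zone libraries. In the list of adipose progenitor genes 1 of 12 was higher, Zfp423 (log2 fold change 0.73), with 14.5 to 19.9 CPM against 6.89 to 14.8 CPM. Pdgfra and Dlk1 were not called (log2 fold change 0.48, adjusted p = 0.0569, and 0.35, adjusted p = 0.651).

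**Figure D4:**
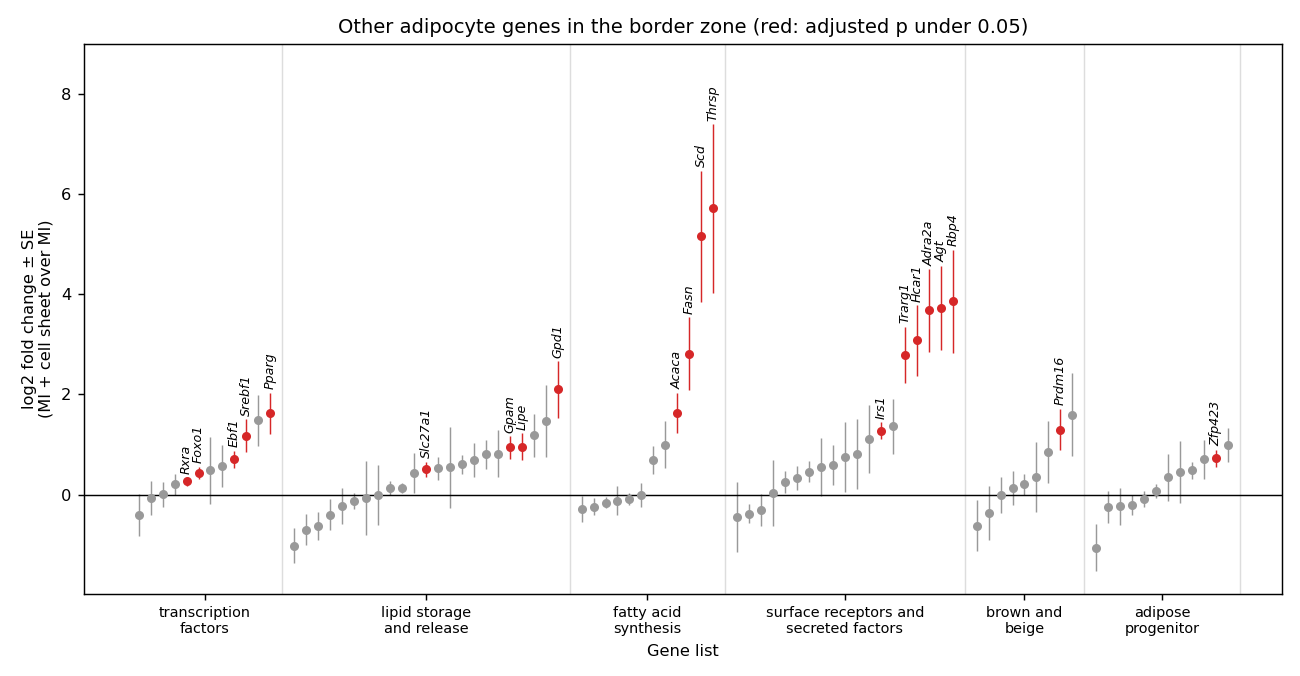
Log2 fold change with standard error (cell sheet over MI, border zone, edgeR) of the 87 tested genes of 6 adipocyte gene lists, ordered within each list, with genes at an adjusted p under 0.05 in red and named. The 21 red points all lie above 0, and the largest are Thrsp at 5.71 and Scd at 5.16 in the list of fatty acid synthesis.

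Between MI and sham in the border zone, 21 of 82 tested genes of the lists were higher and 27 lower, against 18.4% and 23.2% of all genes. Lipid storage genes were mostly lower (14 of 23), among them Acsl1 (log2 fold change −1.96) and Lpl (−1.56), and progenitor genes mostly higher (7 of 12), among them Igfbp4 (3.43). All 10 cardiomyocyte genes were lower in the same comparison, and their part in these differences was not tested. Their sums were 6451 to 41335 CPM in MI, 28788 CPM in sham replicate 5 and 85376 to 93837 CPM in the other sham libraries. In the infarct zone 0 of 83 tested list genes were called between cell sheet and MI by edgeR, and 2 by DESeq2. Over all genes edgeR called 0 of 16196, and the DESeq2 count over all genes is not given here.

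In the remote zone, 11 of 78 list genes were higher and 20 lower in MI than in sham (51 called without sham replicate 5), against 11.7% and 14.2% of all genes. Calls over all genes in that zone rose from 3952 to 7177 without sham replicate 5. Between cell sheet and MI there, 16 of 81 were higher and 6 lower, against 10.3% and 6.79%. The lipid storage genes higher in the cell sheet group were 7 of 23, with Acsl1 at a log2 fold change of 1.35, and the progenitor genes lower were 3 of 11, with Pi16 at −1.002 and Cd34 at −0.44. The call of Pi16 was lost without cell sheet replicate 2 or 5 or MI replicate 4 or 5, and that of Cd34 without cell sheet replicate 2, 3, 5 or 6, without MI replicate 3, 4 or 5, and with no filter on low counts (adjusted p = 0.0535). The count of list genes called also moved with single libraries. It was 46 without cell sheet replicate 1, 8 without replicate 2, 11 without replicate 3, 9 without replicate 5 and 12 without replicate 6, and 11, 11 and 10 without MI replicates 3, 4 and 5. Between cell sheet and sham 0 of 80 were called by edgeR and by DESeq2, where 1520 of all genes had an unadjusted p under 0.05.

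Levels of several marker lists of other cells varied with those of the members across the border zone. The immunoglobulin-led list of B and plasma cell genes (9 genes, rho 0.79 with the members' mean over 18 libraries) summed to 26.0, 13.4, 4.08, 10.1, 20.9 and 34.7 CPM in cell sheet replicates 1 to 6, against 2.56 to 6.31 CPM in MI. In sham it was 3.01 to 26.3 CPM, the highest in replicate 5. Of 4 tested genes of the list 2 were higher in cell sheet than in MI, Igha (log2 fold change 4.61, adjusted p = 0.00648 by edgeR) and Jchain (2.35, adjusted p = 0.0209), both products of plasma cells. Over all genes tested in this comparison, 8.47% were higher in cell sheet. Reads of Igha could have been split with related immunoglobulin genes. At most 1 of the 9 genes was without a count in any of the 12 libraries.
The 10 mesothelial genes, which mark the epicardial surface (rho 0.57), summed to 763, 520.5, 60.7, 295, 309 and 646 CPM in cell sheet, 89.6 to 605 CPM in MI and 38.4 to 358 CPM in sham. None of them was called between cell sheet and MI, and the lowest cell sheet value was again in replicate 3. Over the same 18 libraries rho was −0.69 for the cardiomyocyte list, 0.68 for fibroblast, 0.66 for T cell, 0.44 for macrophage, 0.39 for lung epithelial, 0.18 for nerve and Schwann, −0.09 for endothelial and −0.17 for skeletal muscle genes. These libraries pool sham, MI and cell sheet, so each rho also carries differences between treatments. The fibroblast genes, for example, summed to 3392 to 5081 CPM in sham and 14003 to 40208.5 CPM in MI. Between cell sheet and MI, 2 of 8 T cell genes were lower in cell sheet (log2 fold change −1.93 for Cd3d and −1.86 for Cd3g, adjusted p = 0.02 and 0.0318 by edgeR), with a median of −1.15 over the list. The summed T cell level did not fall with them, with medians of 213 CPM in cell sheet and 205 CPM in MI. In sham it ran from 50.3 to 777 CPM. The rho of 0.66 is that of the sum and does not hold for each T cell gene by itself. Between cell sheet and MI, 1 of 8 macrophage genes was lower (Lyz2, −1.40) and 1 of 8 endothelial genes was higher (Cdh5, 0.82). Over all genes tested in this comparison 9.48% were lower and 8.47% higher, so 1 of 8 is near those shares. None of the cardiomyocyte, fibroblast, skeletal muscle, lung epithelial or nerve and Schwann genes tested was called. The part of these cells, or of the amount of epicardial tissue in a piece, in the levels of the adipocyte genes was not tested.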

How the data were processed

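Poly(A)-enriched RNA of 54 pieces of rat left ventricle (18 animals, 3 zones each) was sequenced on a NovaSeq device. Trimming and alignment by the authors used STAR and the mRatBN7.2 assembly with NCBI's rat annotation, and the authors deposited raw, unnormalized counts per gene, in a separate table for each library. Which counter was used, and with which strand setting, is not given in the sources used here, so reads of overlapping or antisense genes cannot be told apart. The 5 summary lines of each table, which name no gene, held 17.0% to 42.8% of the counts and were left out.

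Groups and replicate numbers came from the deposited labels. Pairs of libraries within a group differed by more than counting noise (chi-square per degree of freedom 7.97 to 539), and none was counted as a duplicate. The members and the gene lists were chosen with earlier results of these data known. CPM used TMM factors over all 54 libraries, and log2 values an offset of 0.1. Two-group fits used edgeR 4.0.16 (quasi-likelihood F test, TMM, filterByExpr, Benjamini-Hochberg adjustment over all genes tested, threshold 0.05) in R 4.3.3, with limma 3.58.1 loaded. No test was made of the members in the border and infarct zone comparisons of treatments. Libraries of different zones with the same number come from the same animal. In sham hearts their deviations correlated in all 6 pairs (0.26 to 0.94 for border and remote, 0.32 to 0.93 for infarct and remote), so blocked values stand beside those results. The named genes were the 10 members, the 4 companion genes of highest mean CPM in each list, 8 fixed companion genes and the 10 genes most like the members by Spearman's rho, some of which are not reported here. Alternatives were DESeq2 1.42.0, no filter, a filter of 10 counts in 6 libraries, library size without TMM factors, an offset of 1, the replicate number as a block and leaving out each library in turn. Simulated counts with known changes were used to test the fits. Promoter sequences are RefSeq's for GRCr8, a different build from that of the counts. Itih5 and Ighm, listed as companion and marker genes, are not in the count tables.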

Additional observations from a re-analysis of the deposited data

Results flagged for a closer look

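Of 90 sets of 6 libraries (10 genes in 9 groups), 13 had a library whose gap to the nearest other, as a share of the range, was above Dixon's critical value, which chance exceeds in about 5%. Many of these groups hold mostly zeros, so that 1 or 2 counts can stand apart. MI infarct zone replicate 4 stood apart for Plin1 (10.05 CPM), Retn (12.9 CPM), Pck1 (7.50 CPM) and Acvr1c (2.54 CPM), with at most 0.247 CPM in the other 5 libraries of any of these genes. MI border zone replicate 1 stood apart for Pck1 (7.01 CPM) and Lep (0.292 CPM). Sham remote zone replicate 6 stood apart for Adipoq (2.66 CPM), Plin1 (0.981 CPM) and Adrb3 (0.140 CPM). Cell sheet remote zone replicate 1 was the only library of its group with Adrb3 counts (0.651 CPM). In the sham infarct position, Adipoq in replicate 1 (0.0771 CPM, 1 count) and Plin1 in replicate 3 (0.151 CPM, 2 counts), and in the sham border position Cidec in replicate 2 (0.160 CPM, 2 counts), were the only libraries of their groups with any count.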

How the results depend on the processing

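Depth limits the members other than Cfd outside the cell sheet border zone, and in the remote zone and sham comparisons only Cfd passed the filter on low counts. The members' median difference in the border zone between cell sheet and MI ran from 3.60 to 5.33 when each library was left out. For MI against sham it was 0.471 in the border zone with an offset of 1 (leave-one-out 1.11 to 1.92). For cell sheet against sham it was 1.18 in the infarct zone with that offset. In the infarct zone, leave-one-out ranges were 0.861 to 2.02 (cell sheet against MI) and 0.529 to 1.75 (MI against sham). Between treatments the replicate numbers name different animals, and their correlations ran from −0.68 to 0.55. With the replicate number as a block, the list genes called were 6 (border, cell sheet against MI), 24 (border, MI against sham) and 0 (remote, cell sheet against MI), and 29 and 31 in the sham zone comparisons. DESeq2 gave 2 in the infarct zone between cell sheet and MI and 5 between sham infarct and remote positions, and the fit without a filter gave 0 between sham border and remote positions. Leaving out 1 library gave 8 to 46 (remote, cell sheet against MI), 25 to 51 (remote, MI against sham), 0 to 16 (sham border against remote) and 1 to 18 (sham infarct against remote). In the border zone it gave 14 to 27 (cell sheet against MI) and 35 to 58 (MI against sham). Calls over all genes with the block, by DESeq2 or without a filter are not given here. With 1 library left out, calls over all genes moved too. They ran from 1096 to 6450, 2744 to 7177, 0 to 2180 and 397 to 3387 in the remote and sham comparisons, in that order. In the border zone they ran from 1941 to 3083 (cell sheet against MI) and 5068 to 9641 (MI against sham). The causes were not tested. The 21 list genes higher in the cell sheet border zone kept their direction under every alternative run.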
